A study of Mus musculus with 2 samples.

Results

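The cells described here were fibroblasts of the mouse knee joint of the kind marked by Pi16 and Dpp4, often called universal fibroblasts. A cell was counted among them when at least 4 of the 6 genes Pi16, Cd34, Dpp4, Mfap5, Clec3b and Scara5 had a value above 0 in the deposited single-cell tables. The rule found 270 of 6243 cells, of which 191 of 4903 came from the control library and 79 of 1340 from the mutant library. The study asked what loss of the transcription factor STAT3 in chondrocytes does to postnatal cartilage. Control mice were Stat3fl/fl and mutant mice were Acan-Cre+/Cre;Stat3fl/fl, so both groups carried the floxed Stat3 alleles and only the mutants carried a Cre recombinase under the control of Acan, the gene of the cartilage proteoglycan aggrecan. All mice were female, and the methods describe knees of animals aged 1 month, a tamoxifen-regulated Cre that was used as 1 allele, several mice pooled for each genotype, and a sort for live cells negative for CD31, Ter119 and CD45, which mark endothelial cells, red cells and leukocytes. Acan is a gene of chondrocytes, and the fibroblasts described here are not the cells that this Cre was chosen to target. There was 1 droplet library for each genotype, so no difference between genotypes has a replicate check, and genotype, mouse pool and library cannot be told apart. Cells of a library share their source and were not treated as replicates, and no test between genotypes was made.

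Universal fibroblasts are found in the connective tissue of many organs, often close to larger vessels and in fascia and tendon sheaths. They are known for a surface profile of CD34, DPP4 and Sca-1 (encoded by Ly6a), for elastic microfibril proteins such as MFAP5, and for the capacity to give rise to more specialised fibroblasts and to adipocytes. PI16 is named as a peptidase inhibitor, DPP4 a membrane peptidase that cleaves chemokines and incretins, CLEC3B the plasminogen-binding protein tetranectin, and SCARA5 a ferritin receptor. STAT3 is activated when a cytokine of the interleukin-6 family binds receptors that share the subunit gp130 (Il6st), and it then switches on genes that include its own inhibitor Socs3.

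The number of cells and the depth of the libraries bear on every value that follows. The members held 795324 estimated transcripts (unique molecular identifiers, UMIs) for the control and 639819 for the mutant library. The median depth of a member was 3656 UMIs for the control and 8023 for the mutant, while all other cells had medians of 4404 and 3453. The members of the mutant library were thus deeper than those of the control library, and the other cells were not. Haemoglobin transcripts were above 0 in 125 of the 191 control members (65.4%, 95% interval 58.2 to 72.2) and in 0 of the 79 mutant members, which allows a share of up to 4.56%. The same gap was seen in the other cells, where 76.1% of the control and 8.96% of the mutant ones had haemoglobin transcripts. Intervals on shares are exact Clopper-Pearson intervals, those on differences of shares are Newcombe intervals, and both cover counting error only.

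Members made up 3.90% of the control cells (95% interval 3.37 to 4.48) and 5.90% of those from the mutant library (4.70 to 7.29), which is 2.0 percentage points more (0.722 to 3.48). The size of the difference turned on the cells that were counted. Among cells with no haemoglobin transcript the shares were 5.55% (66 of 1190) and 6.44% (79 of 1227). When every cell was first thinned to 1000 UMIs and the rule was then applied, 51 of 4551 control cells (1.12%) and 15 of 1134 mutant cells (1.32%) met it. Other fibroblasts were defined as cells with Pdgfra, Dcn and Col3a1 all above 0 that met neither this rule nor that of another cell type, and there were 198 and 66 of them. Of the members and other fibroblasts together, members were 49.1% for the control and 54.5% for the mutant. Shares after a sort need not follow the composition of the knee.

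The genes of the rule were read first, as a description, since they chose the cells. Mfap5, Clec3b and Cd34 were present in nearly all members. Mfap5 was found in 98.4% of the members in the control and 100% of those in the mutant, at 1282 and 1538 CPM (counts scaled to a common library total), against 19.8 and 88.0 CPM in all other cells of the same libraries. Clec3b was above 0 in 95.8% and 98.7% of members, at 1359 and 1951 CPM, and Cd34, the sialomucin of progenitor and endothelial surfaces, in 95.8% and 93.7%, at 878 and 840 CPM. Scara5 was above 0 in 84.8% and 86.1%, at 516 and 423 CPM. Pi16 and Dpp4, the genes for which these cells are named, were found in fewer of them. Pi16 (chr17:29317680-29330593 in mm10, plus strand) was found in 49.2% of the control members and in 44.3% of the mutant ones, at 508 and 344 CPM, and Dpp4 (chr2:62330073-62412231, minus strand) in 48.7% and 45.6%, at 221 and 119 CPM. In all other cells Pi16 stood at 1.83 and 1.30 CPM and Dpp4 at 1.10 and 1.16 CPM. Both were present in 48 control members (25.1%) and 16 mutant members (20.3%), and neither in 52 (27.2%) and 24 (30.4%). The members that lacked both were those with the other 4 genes, which was also the commonest combination in each library. All 6 genes were above 0 in 33 control and 14 mutant members.

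Each rule gene was also read in cells that it had not chosen, namely those with at least 3 of the other 5 genes. Pi16 was above 0 in 37.0% of 254 such control cells (31.1 to 43.3), and in 0.753% of the 4649 cells with fewer of the other genes. In the mutant library the shares were 26.9% of 130 cells and 0.496% of 1210. Dpp4 gave 35.6% and 0.582% in the control and 27.7% and 0.579% in the mutant library. Scara5 gave 67.8% against 1.52% and 57.1% against 3.85%, and Cd34, Mfap5 and Clec3b gave 87.1% to 94.0% in the chosen cells and 3.81% to 10.5% in the rest. All 6 genes were therefore gathered in the same cells in both libraries, with Pi16 and Dpp4 the rarest.

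**Figure D1:**
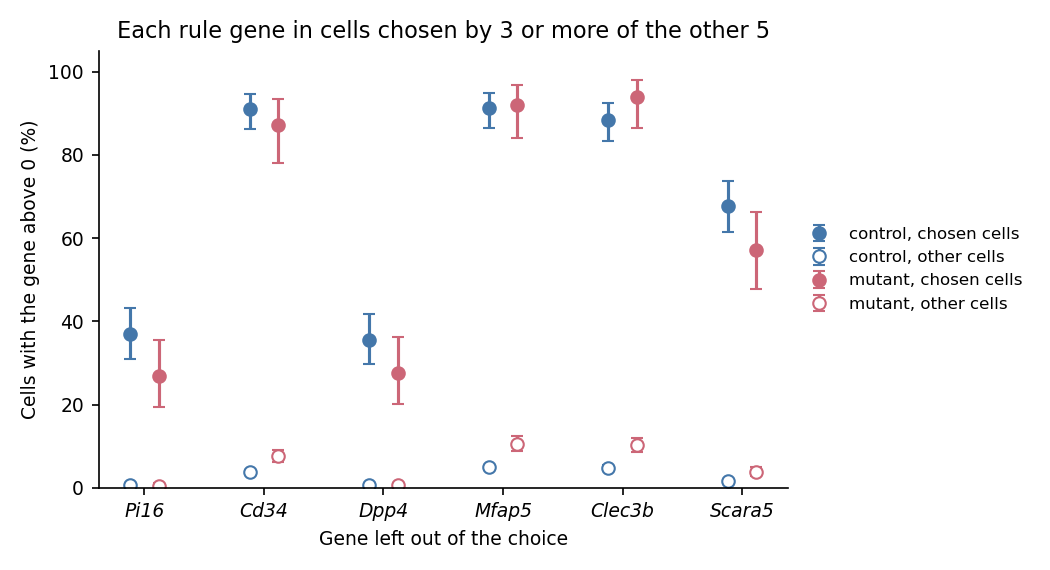
Share of cells (percent) with a value above 0 for each rule gene, in cells with at least 3 of the other 5 rule genes (filled) and in cells with fewer (open), for the control (blue) and the mutant library (red); bars are exact 95% intervals and cover counting error only. For Pi16 the chosen cells stood at 37.0% and 26.9%, and the rest at 0.753% and 0.496%.

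The limit of 4 genes cut through a gradual series rather than a gap. In the control library 4195, 339, 104, 74, 85, 73 and 33 cells had from 0 to 6 of the genes above 0, and in the mutant library 1024, 111, 73, 53, 39, 26 and 14. Cells with 3 genes, just outside the limit, had 975 CPM of Ly6a in control and 1236 CPM in mutant libraries, and cells with 4 genes, just inside it, had 1176 and 1582 CPM. Dpt, which encodes the matrix protein dermatopontin, went from 1206 to 1283 CPM and from 1403 to 1478 CPM over the same step. Pdgfra, a receptor of mesenchymal cells, was above 0 in 74.3% and then 82.4% of control cells and in 71.7% and then 84.6% of mutant cells. The median depth also went up over this step, from 3099 to 3893 UMIs and from 6009 to 8037. Pi16 itself stayed at 102.9 and 96.5 CPM in control cells with 3 and 4 genes and reached 588 and 1321 CPM with 5 and 6.

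**Figure D2:**
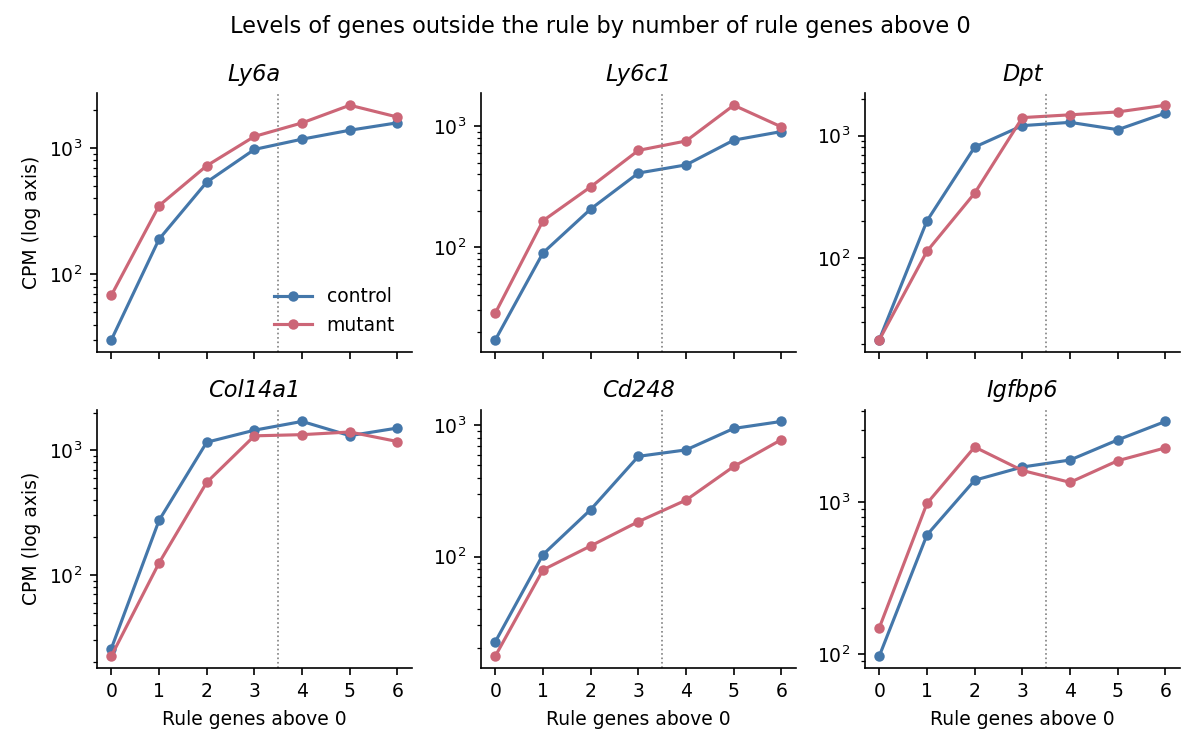
Levels of 6 genes outside the rule (CPM of summed UMIs, log axis) in cells grouped by how many of the 6 rule genes were above 0, with 1 line for each library; the dotted line lies between 3 and 4 genes, the limit for members. Ly6a stood at 30.2 CPM in control cells with none of the genes and at 1585 CPM in those with all 6.

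Members with and without Pi16 were then compared within each library, on genes outside the rule. A list of 20 further genes of universal fibroblasts, chosen with earlier results of these data known, was higher in members with Pi16 for 19 genes in the control (median log2 ratio 0.54) and for 18 in the mutant library (0.71). The split by Dpp4 gave 18 (0.40) and 16 (0.87) of the 20. A list of 14 genes shared by most fibroblasts was higher in members with Pi16 for only 4 and 5 of its genes, and with Dpp4 for 3 and 4. No share over all genes is given for these splits, so the lists are set only against each other. Sema3c, which encodes a secreted guidance protein, stood at 981 CPM in control members with Pi16 and 502 without it, and at 513 and 198 CPM in the mutant library. Smpd3, a neutral sphingomyelinase, stood at 624 and 273 CPM in the control and 99.2 and 42.2 CPM in the mutant library. The calcium-binding protein gene S100a4 ran the other way, at 220 and 687 CPM in the control and 454 and 1507 CPM in the mutant library. Members with Pi16 were not the deeper ones in the control library, where their median was 3187 UMIs against 4142 without it. For the mutant library the depth of this split is not given.

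Against all other cells of the same library, the members carried a fibroblast profile with the universal genes on top. Of 3188 genes measured (those with values above 0 in 10% or more of the members of a library and a mean level no lower than 50 CPM), 383 (12.0%) were at least 2-fold higher in members in both libraries. In this as in all comparisons a log2 ratio was taken of CPM + 1, which understates the change of low genes. From the universal list 17 of 20 genes were among those at least 2-fold higher, with medians of 3.36 and 2.02 on the log2 scale, and from the common fibroblast list 10 of 14. Outside the rule genes, the highest ratios in the lower of the 2 libraries were those of Col6a6 (log2 4.73 and 5.13), a chain of the microfibrillar collagen type VI, of the angiopoietin receptor Tek (5.54 and 4.72), of the complement component C3 (5.11 and 4.12) and of the secreted WNT antagonist Sfrp4 (4.93 and 4.11). Sfrp4 stood at 760 and 1079 CPM in members and 23.9 and 61.7 CPM in all other cells. The eosinophil chemokine gene Ccl11 (3.92 and 3.82) and Dpt (4.38 and 3.74) were also among the 15 highest. The complement list had 7 of 9 genes past this limit, the elastic fibre list 11 of 18 and the list of chemokines and cytokines 8 of 15. Of the measured markers of other cell types, 7 of 8 chondrocyte, 4 of 4 lining, 3 of 3 osteoblast and 4 of 4 erythroid genes were at least 2-fold lower in members in both libraries. For tendon the count was 2 of 5, for marrow stromal cells 1 of 5 and for mural cells 1 of 2. The 1 measured endothelial and the 1 measured immune gene were not among those lower. Of all 9064 genes at 10 CPM or more in members of either library, 289 were that much lower.

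The closer comparison was with the other fibroblasts of the same libraries. There 76 of the 3188 genes (2.38%) were at least 2-fold higher in members in both libraries and 14 (0.439%) at least 2-fold lower. The 3188 genes were chosen by their level in members, so genes high only in the comparison cells were not counted. The balance of higher and lower genes, here and against all other cells, is therefore partly set by that choice. The universal list accounted for 12 of the 76, with medians of 1.74 and 1.34, while the common fibroblast list had 1 gene past the limit and medians of 0.07 and -0.04. The complement list had 1 of 9 genes past it (medians 0.16 and 0.29) and the elastic fibre list 2 of 18 (0.56 and 0.17). Chemokines and cytokines had 3 of 15 (0.41 and 0.71). Most genes of these lists that stood above all other cells were thus not 2-fold above other fibroblasts. Dpp4 was at 221 and 119 CPM in members and at 1.39 and 2.87 CPM in other fibroblasts. Pi16 was at 508 CPM in control members and 16.9 CPM in control other fibroblasts, and was listed at 0 in all 66 other fibroblasts of the mutant library. Since the rule chose on these genes, these values only describe the cells.

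High ratios outside the rule genes included several genes of surface proteins, which were not counted as a class. Tek was at 102 and 48.4 CPM in members and 5.54 and 2.87 CPM in other fibroblasts. Cd55, which encodes the decay-accelerating factor that restrains complement on the cell surface, was at 495 and 247 CPM against 48.9 and 37.4 CPM. Cd248, the stromal marker endosialin, was at 840 and 430 CPM against 229 and 118 CPM. The protein C receptor gene Procr had log2 ratios of 1.82 and 1.83, and the integrin gene Itgb3 2.31 and 2.66. Secreted factors included Sema3c at 707 and 333 CPM against 170 and 77.5 CPM, and Il33, the alarmin interleukin-33, with log2 ratios of 1.78 and 2.16. In each of these genes the members were above the other fibroblasts in both libraries.

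Among the 3188 genes, the 14 that were at least 2-fold lower than in other fibroblasts were Apoe, Chad, Clu, Col8a1, Col12a1, Cpe, Crispld1, Crispld2, Ecrg4, Fmod, Id1, Igf2, Mgp and Tmem176b. Clu, which encodes the secreted chaperone clusterin, was at 90 and 84.5 CPM in members against 980 and 596 CPM. Mgp, the matrix inhibitor of calcification, was at 720 and 1242 CPM against 2650 and 4971 CPM. Fmod (fibromodulin) is a proteoglycan of tendon and Chad (chondroadherin) a protein of cartilage matrix, and both were lower in members. Prg4, the lubricin gene of joint lining cells, was at 390 and 820 CPM in members, 1732 and 710 CPM in other fibroblasts and 107278 and 89738 CPM in lining cells.

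**Figure D3:**
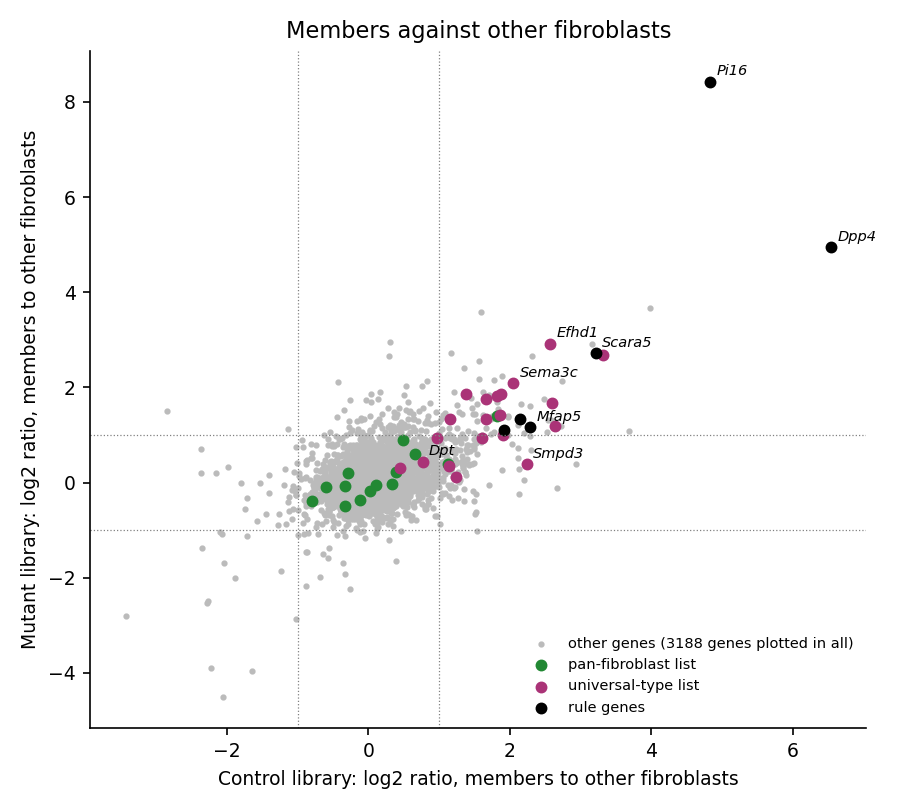
Log2 ratio of members over other fibroblasts, on the CPM + 1 scale, in the control library (horizontal axis) and the mutant library (vertical axis) for the 3188 measured genes, with the rule genes, the universal list and the common (pan-fibroblast) list in colour and dotted lines at 2-fold. The universal list lies to the upper right and the common list near the centre; Pi16 was listed at 0 in the mutant other fibroblasts, so its height depends on the pseudocount.

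Between genotypes, the members of the mutant library had higher levels of chemokines, of early-response genes and of listed STAT3 target genes, and lower levels of fibrous collagens and proliferation genes. The other fibroblasts had medians of the same sign on each of these lists. Of the 3188 genes 192 (6.02%) were at least 2-fold higher in the mutant library and 188 (5.90%) at least 2-fold lower, with a median log2 ratio of -0.08. When the libraries were scaled by median-of-ratios size factors instead of totals, every log2 ratio was 0.12 higher and the split was 253 higher and 139 lower. Without the control members that held haemoglobin transcripts, 203 genes were at least 2-fold higher and 211 lower. These values set 1 library against 1 other, and the depth and haemoglobin gaps given above moved with the genotype; their part in the differences was not tested.

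The 10 highest ratios belonged to genes of several kinds. The neutrophil chemokine gene Cxcl1 was at 80.5 CPM in control and 735 CPM in mutant members and above 0 in 17.3% and 60.8% of them. Cxcl2, a related chemokine, had 1 UMI in control and 79 in mutant members, a ratio of 98.2 with a counting interval of 17.1 to 3927, and 3 mutant cells held 65.9% of its UMIs. Cebpb, a transcription factor of inflammation and adipogenesis, was at 27.4 and 296 CPM and above 0 in 11.0% and 69.6%. Dbp, a transcription factor of the circadian clock, was at 13.2 and 178 CPM and above 0 in 5.24% and 62.0%. The median mutant member had 176 CPM of Cebpb and 161 CPM of Cxcl1, where the median control member had 0 of each. The other genes among the 10 highest ratios were the adhesion molecule Chl1 (7.26 and 147 CPM), the matricellular Ccn5 (4.84 and 101 CPM), the homeobox gene Barx1 (8.63 and 103 CPM), the chemokine Cxcl14 (64.9 and 666 CPM), the haem oxygenase Hmox1 (32.8 and 291 CPM) and the proteoglycan serglycin, Srgn (11.7 and 103 CPM).

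The list of 15 measured chemokines and cytokines had a median log2 ratio of 1.92, with 12 genes higher and 10 of them at least 2-fold. Over all 9064 genes at 10 CPM or more in either library the median was -0.18, and 7.0% were at least 2-fold higher. The monocyte chemokines Ccl2 (28.8 and 217 CPM) and Ccl7 (67.8 and 284 CPM) were higher in the mutant library, as were Ccl19 (9.39 and 65.6 CPM), a ligand of T cells and dendritic cells, and Cxcl12 (283 and 852 CPM), which retains blood progenitors. Csf1, the macrophage growth factor, was at 251 and 172 CPM, and Il33 at 59.3 and 54.6 CPM. Of the gp130 ligands, Il6 was at 12.5 and 28.1 CPM, Lif at 4.60 and 20.2 CPM, and Il11 had 3 UMIs in control and 19 in mutant members, a ratio of 7.87 with a counting interval of 2.32 to 41.5, though the log2 ratio of Il11 was 0.26 in members thinned to 1000 UMIs. The other fibroblasts had a median of 1.35 over this list, with 12 of 14 genes higher, so the direction was not limited to members. When cells were thinned to 1000 UMIs before the rule, which left 51 control and 15 mutant members, the median over the list was 0.0648. Against control members without haemoglobin transcripts 11 of 15 were higher.

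Complement, antigen-presentation and early-response genes lay on the same side. Among all 9064 genes 3652 were higher, and 7.0% at least 2-fold. The complement list had 7 of 9 genes higher and a median of 0.70, with C4b at 169 and 742 CPM, the protease C1ra at 120 and 258 CPM and C3 at 685 and 893 CPM. In thinned members the log2 ratio of C1ra was 0.37, and that of Irf1, named next, 0.43. Cd55 was an exception in the complement list at 495 and 247 CPM. The interferon and class I list had 12 of 13 higher and a median of 0.73, including H2-D1 (170 and 387 CPM), the regulator Irf1 (44.1 and 104 CPM) and the immunoproteasome subunit Psmb8 (11.1 and 48.1 CPM), while Ifit1 was lower at 20.1 and 7.76 CPM. The list of early-response and heat shock genes, which tissue dissociation is known to switch on, had 17 of 19 higher, 10 of them at least 2-fold, and a median of 1.09. Ier3 was at 130 and 970 CPM, Nr4a1 at 79.0 and 514 CPM, and Junb at 224 and 850 CPM, but Jun was at 3018 and 1753 CPM. Its part in the differences of the other lists was not tested. In other fibroblasts 8 of 9 complement genes (median 0.794) and 12 of 13 interferon and class I genes (0.891) were higher. Of the early-response and heat shock genes 15 of 19 were higher there (0.601). Across all other cells the medians were 1.37, 0.908 and 0.935, so the directions were not limited to members. Below 0 were complement genes in marrow stromal (-0.839) and osteoblast cells (-0.0962), and early-response genes in lining cells (-0.475).

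Several genes of the extracellular matrix were lower in the mutant library. Over the 9064 genes at 10 CPM or more, 5412 were lower and 14.5% at least 2-fold lower, against which the lists are to be read. Fbn1, which encodes the microfibril protein fibrillin-1 (chr2:125300594-125507993 in mm10, minus strand), was at 4830 CPM in control and 1395 CPM in mutant members (log2 ratio -1.79), and the median member had 3660 and 914 CPM. Eln (elastin) was at 620 and 212 CPM and Fbln2 (fibulin-2) at 1139 and 626 CPM. The 18 genes of the elastic fibre list had a median of -0.33 with 12 lower and 4 at least 2-fold lower, near the share over all genes, and 0.06 in other fibroblasts. All 12 fibrous collagens were lower, with a median of -0.63, and all 12 were lower in other fibroblasts too, with a median of -1.08. Col5a3 was at 712 and 192 CPM, Col5a1 at 1681 and 814 CPM, Col1a1 at 11113 and 6825 CPM and Col3a1 at 23279 and 15584 CPM. Among small leucine-rich proteoglycans the members diverged, with Dcn (decorin) at 6420 and 9502 CPM and Lum (lumican) at 741 and 1038 CPM, and Ogn (osteoglycin) at 907 and 413 CPM and Aspn (asporin) at 1118 and 580 CPM. The membrane collagenase Mmp14 was at 479 and 228 CPM. The common fibroblast list as a whole had 7 genes higher and 7 lower.

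Of the further universal genes 14 of 20 were lower in the mutant library, near the 5412 of 9064 over all genes, with 6 at least 2-fold lower, where all genes gave 14.5%. Their median was -0.52, while the other fibroblasts had 12 of 20 lower and a median of -0.08. Smpd3 was at 423 and 66.4 CPM, Limch1 at 103 and 24.9 CPM, the adhesion receptor Adgrd1 at 222 and 84.3 CPM, Sema3c at 707 and 333 CPM, the annexin Anxa3 at 279 and 133 CPM, and Efhd1 at 104 and 50 CPM. Cd248 was at 840 and 430 CPM. Ly6a (1330 and 1815 CPM), Ly6c1 (667 and 1046 CPM), Pcolce2 (544 and 804 CPM), an enhancer of procollagen processing, and the CXCL12 scavenger receptor Ackr3 (120 and 233 CPM) were higher. The count at least 2-fold lower was 3 in place of 6 without haemoglobin-positive members, and also 3 under median-of-ratios scaling. The direction was thus mixed among the genes that characterise these cells.

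Genes of fibroblasts marked by Col15a1, the other widespread fibroblast type, were mixed as well, with 5 of 12 higher and a median of -0.28. Apod, a lipid-binding apolipoprotein, was at 457 and 1256 CPM and Lpl, lipoprotein lipase, at 233 and 86.7 CPM. The adipogenic list had 5 of 9 higher and a median of 0.31. Its transcription factors Cebpa (8.78 and 31.0 CPM), Cebpb and Cebpd (48.2 and 99.6 CPM) were higher in the mutant library. Of the insulin-like growth factor axis, Igfbp7 was at 591 and 1356 CPM and the growth factor Igf2 at 166 and 39.2 CPM, but Igf2 was at 89.5 and 89.7 CPM after members were thinned to 1000 UMIs.

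The lowest ratios belonged to red cell and cell division genes. The haemoglobin genes Hbb-bs (266 CPM), Hbb-bt (124 CPM) and Hba-a1 (107 CPM) of control members were all at 0 in mutant members, at least 56.6-fold, 26.5-fold and 22.8-fold lower against a floor of 3 UMIs over the group, as was the carbonic anhydrase gene Car2 (126 CPM, at least 26.9-fold). Mki67, the antigen of dividing cells, was at 205 CPM in control and 0 in mutant members, at least 43.6-fold lower, and the histone genes Hist1h2ae (112 CPM and 0, at least 23.8-fold) and Hist1h2ap (418 and 3 UMIs, 112-fold with a counting interval of 38.1 to 546) were also lower. Over the list of 16 measured S and G2/M genes 15 were lower, with a median of -3.22, or -2.13 with the 6 genes at 0 set to their bound, and their summed level was 629 and 143 CPM. Pcna alone of that list was higher, at 32.8 and 77.5 CPM. Among all 9064 genes 5412 were lower, and 14.5% at least 2-fold. The drop was not limited to members, with medians over the list of -2.99 in other fibroblasts (16 of 18 lower) and -3.38 in all other cells (20 of 20 lower). The pool of all other cells differed in make-up between the libraries, as given above. The groups chosen by markers had medians from -1.24 in osteoblast cells to -4.1 in marrow stromal cells. In the 66 control members with no haemoglobin transcript, Mki67 was at 76.6 CPM, Hist1h2ap at 34.5, Car2 at 24.3 and Hist1h2ae at 18 CPM, and 10 of 12 measured genes of the list were lower in the mutant library, so these levels moved with haemoglobin within the control library. The remaining 3 of the 10 lowest were Chad, Crispld1 (97.0 and 8.87 CPM) and the WNT modulator Sfrp2 (140 and 14.0 CPM). Chad was at 256 and 22.1 CPM, with 69.9% of its control UMIs in 3 cells, and at 66.9 and 3.28 CPM without members that also met the rule of another cell type.

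**Figure D4:**
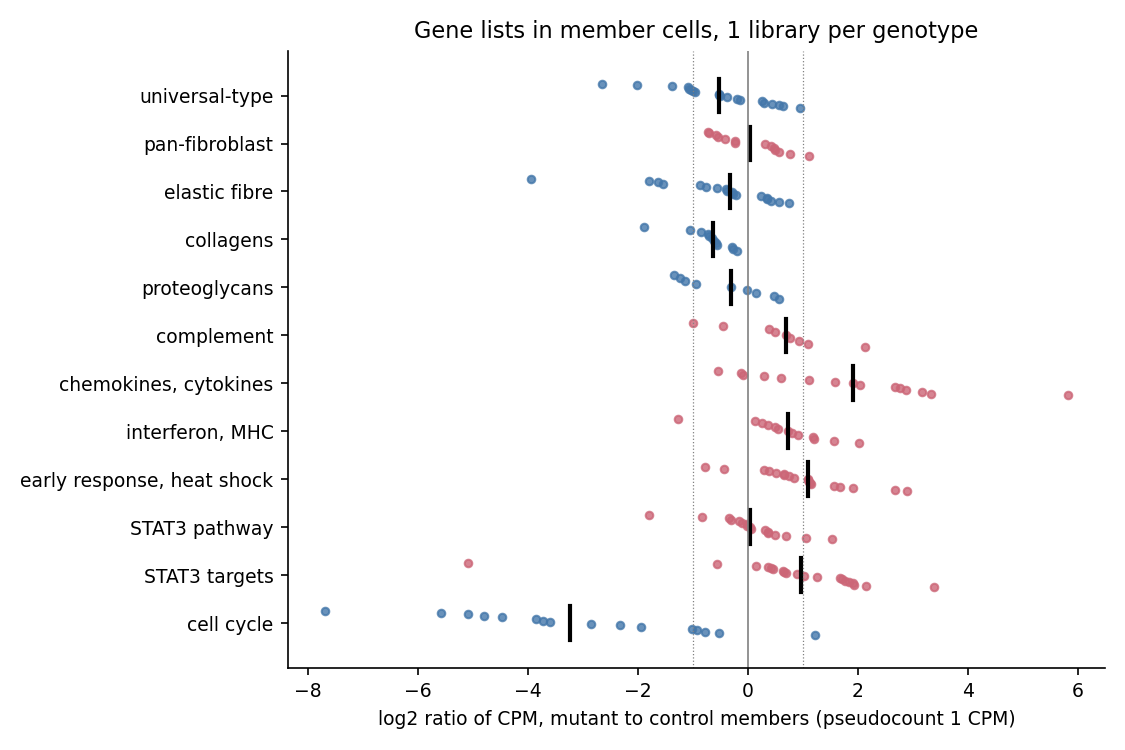
Log2 ratio of the mutant over the control library in members, on the CPM + 1 scale (horizontal axis), for the genes of each list (points, coloured by the sign of the list's median) with the median as a black bar; dotted lines mark 2-fold. The chemokine list has a median of 1.92, the STAT3 targets 0.96, the collagens -0.63 and the cell cycle (S and G2/M) genes -3.22; genes at 0 in a library depend on the pseudocount.

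The gene deleted by the Cre was checked next. Stat3 (chr11:100885098-100939540 in mm10, minus strand) was at 99.0 CPM in control and 160 CPM in mutant members, a log2 ratio of 0.69. It was above 0 in 63 of 191 control members (33.0%, 26.4 to 40.1) and 52 of 79 mutant members (65.8%, 54.3 to 76.1). After each member was thinned to 1000 UMIs the shares were 7.37% (4.09 to 12.1) and 16.7% (9.18 to 26.8). Stat3 was therefore not lower in the members of the mutant library. In the other fibroblasts it was at 99.3 and 146 CPM, in lining cells at 107 and 108 CPM, and in mural cells at 96.7 and 183 CPM. Marrow stromal cells had 156 and 167 CPM. It was slightly lower in the mutant library in tendon cells (90.3 and 84.1 CPM) and osteoblast cells (139 and 132 CPM). In all other cells together, a pool whose make-up differed between the libraries, it was at 67.9 and 116 CPM. In cells with both Sox9 and Col2a1, the chondrocytes for which the driver was chosen, it was at 142 and 97.6 CPM (log2 ratio -0.54). It was above 0 in 46.1% (42.7 to 49.5) and 42.7% (36.3 to 49.2) of these cells, with overlapping intervals. The libraries read transcripts from the 3' end, and the files do not show whether those reads cover the floxed part of Stat3.

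Upstream of STAT3 the shared receptor subunits and Jak1 differed little, and single receptors differed more. The pathway list had 9 of 17 genes higher and a median of 0.05. The shared receptor subunit Il6st was at 287 and 268 CPM, Lifr at 68.6 and 68.4 CPM and the kinase Jak1 at 354 and 352 CPM. The oncostatin M receptor Osmr was at 56.7 and 73.3 CPM in members, where it was at 94.7 and 21 CPM in the Sox9 and Col2a1 cells. Il11ra1, which binds interleukin-11, was at 108 and 314 CPM, and the leptin receptor Lepr at 39.4 and 10.6 CPM, or 36.8 and 25.6 CPM in thinned members. Il11ra1 was also higher in other fibroblasts (132 and 322 CPM) and in every marker group except mural cells (12.65 and 5.91 CPM).

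Of 20 measured genes listed as STAT3 targets, 18 were higher in the mutant library, 10 of them at least 2-fold, with a median log2 ratio of 0.96. Among all 9064 genes at 10 CPM or more in either library 3652 were higher, and 7.0% at least 2-fold. Against control members without haemoglobin transcripts 16 of 21 were higher, with a median of 0.66. All other cells together had a median of 1.39 over this list, with 17 of 19 genes higher, and the other fibroblasts one of 0.92. The make-up of the pool of all other cells differed between the libraries, as given above. Tendon cells had 1.12, mural cells 0.949, marrow stromal cells 0.495, osteoblast cells 0.234, lining cells 0.212 and the Sox9 and Col2a1 cells 0.15. The direction was thus not limited to members. The feedback inhibitor Socs3 was at 42.8 and 104 CPM and above 0 in 16.8% and 41.8% of members. In members thinned to 1000 UMIs, Socs3 was above 0 in 2.63% (0.86 to 6.03) and 8.97% (3.68 to 17.6), with overlapping intervals. Pim1, a survival kinase, was at 61.8 and 205 CPM, Myc at 30.7 and 140 CPM, the adhesion molecule Icam1 at 25.9 and 85.3 CPM, the metalloreductase Steap4 at 34.8 and 65.5 CPM and the cytokine-inducible inhibitor Cish at 2.46 and 10.9 CPM, with a log2 ratio of 0.26 in thinned members. The survival protein gene Mcl1 was at 364 and 570 CPM. Lower were Il4ra, a receptor of interleukin-4, at 65.1 and 43.7 CPM, and the mitotic gene Birc5, at 33.0 and 0 CPM. Several of these genes, among them Junb, Myc, Cebpb and Fos, are also early-response genes, and Junb and Fos stand in both lists.

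**Figure D5:**
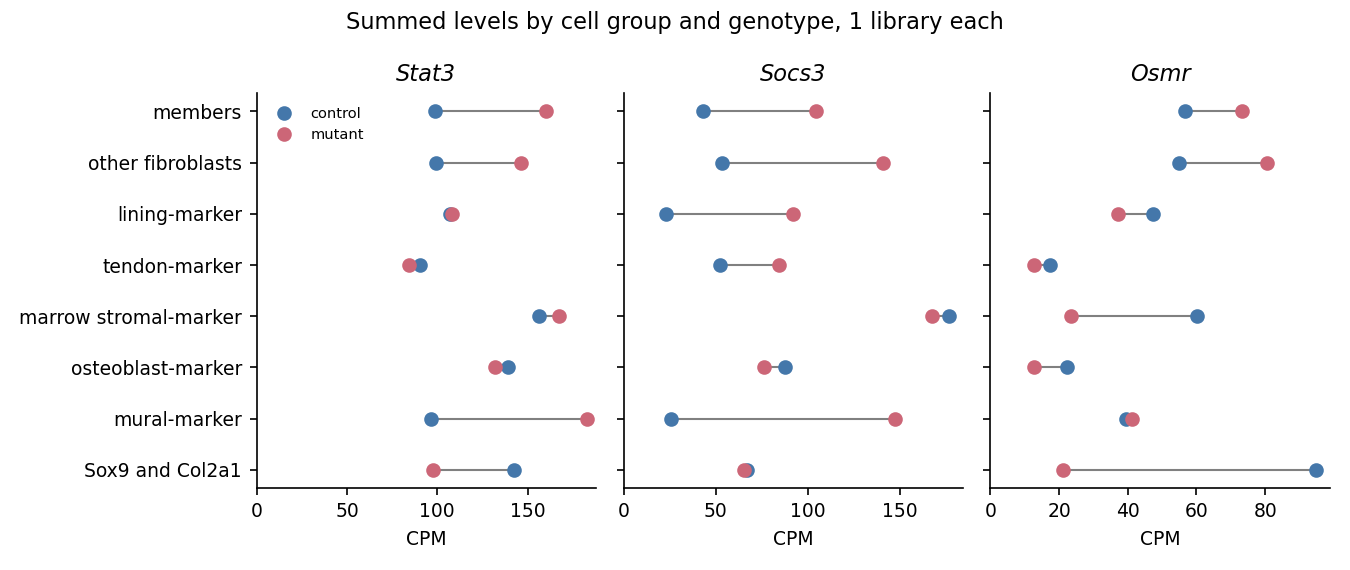
Levels of Stat3, Socs3 and Osmr (CPM of summed UMIs, linear axes from 0) in members, other fibroblasts and the cell groups chosen by markers, with 1 point for each library, control in blue and mutant in red. In members all 3 genes are higher in the mutant library, with Stat3 at 99.0 and 160 CPM, and in the Sox9 and Col2a1 cells Stat3 is lower, at 142 and 97.6 CPM.

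The promoters of the target list were searched for TTCNNNGAA, the letters that STAT dimers are known to bind, which read alike on both strands. RefSeq windows of 300 bases around the start of the transcript were at hand for 20 of the listed genes, and 4 of them (20%) held the letters, against 2582 of 27025 genes (9.55%) in the whole table. The windows of Socs3, Icam1 and Steap4 are printed because these targets passed the level rule and were higher in mutant members; capitals mark the motif. They are from RefSeq on GRCm38.p6, read 5′ to 3′ on the strand of the gene, at chr11:117969317-117969616 (minus strand) for Socs3, chr9:21015690-21015989 (plus strand) for Icam1 and chr5:7960222-7960521 (plus strand) for Steap4.
Socs3: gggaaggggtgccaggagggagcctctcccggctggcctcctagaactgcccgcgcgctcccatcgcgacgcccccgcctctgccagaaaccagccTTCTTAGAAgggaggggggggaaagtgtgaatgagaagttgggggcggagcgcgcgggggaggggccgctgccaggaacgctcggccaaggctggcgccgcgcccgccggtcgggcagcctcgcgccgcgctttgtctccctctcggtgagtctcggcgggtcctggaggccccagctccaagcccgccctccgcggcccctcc
Icam1: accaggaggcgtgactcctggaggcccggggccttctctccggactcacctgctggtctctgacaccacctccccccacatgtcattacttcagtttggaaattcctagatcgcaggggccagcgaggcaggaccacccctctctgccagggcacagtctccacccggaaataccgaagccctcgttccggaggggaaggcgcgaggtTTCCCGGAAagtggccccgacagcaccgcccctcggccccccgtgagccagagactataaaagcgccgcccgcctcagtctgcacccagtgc
Steap4: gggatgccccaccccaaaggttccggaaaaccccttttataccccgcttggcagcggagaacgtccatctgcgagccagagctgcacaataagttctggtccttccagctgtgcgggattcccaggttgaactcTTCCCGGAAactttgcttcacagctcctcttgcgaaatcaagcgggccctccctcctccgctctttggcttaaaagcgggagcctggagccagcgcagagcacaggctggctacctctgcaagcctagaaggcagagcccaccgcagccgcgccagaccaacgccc

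In these windows the motif began 154 bases before the start of the Socs3 transcript, 42 before that of Icam1 and 116 before that of Steap4. The window of Cish held 2 such motifs. A match describes the letters of the window and does not show that STAT3 was bound there in these cells.

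The gene that drives the Cre was at low levels in most members. Acan was above 0 in 17 of 191 control members (8.90%, 5.27 to 13.9) and 13 of 79 mutant members (16.5%, 9.06 to 26.5), at 357 and 155 CPM. In the Sox9 and Col2a1 cells it was above 0 in 92.7% and 80.8%, at 4485 and 1879 CPM. A few members carried most of it, since 3 cells held 67.7% of its UMIs among control and 91.3% among mutant members, and the 11 control and 5 mutant members that themselves had Sox9 and Col2a1 held 92.1% and 88.5%. Without the 27 and 11 members that also met the rule of another cell type or had several markers of endothelial or immune cells, Acan was above 0 in 5.49% and 13.2%, at 16.8 and 17.9 CPM, and Col2a1 was at 42.2 and 11.7 CPM in place of 3309 and 1144. Having Sox9 and Col2a1 both above 0 was among those rules, so the lower Col2a1 followed from the choice of cells. Most Acan UMIs lay in the same cells, so its lower level there is not a separate check. After thinning to 1000 UMIs, 3.16% of control and 6.41% of mutant members had Acan. Other fibroblasts had Acan at 347 and 47.1 CPM, and in them it was above 0 in 36.9% and 7.58%. The deposited values had free RNA removed by the authors, and how much of the remaining Acan was free RNA was not tested. Whether a cell had once expressed Acan, which a Cre would record, cannot be read from these levels.

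The sort was directed at leukocytes, red cells and endothelial cells, and red cell transcripts were the most abundant of their markers in control members only. The summed level of the 5 erythroid genes was 529 CPM in control members and 0 in mutant members, and 49 control members (25.7%) had at least 2 of them above 0. The leukocyte gene Ptprc (CD45) was above 0 in 1 control and 0 mutant members and the endothelial cadherin gene Cdh5 in 1 and 0, and C1qa, S100a8 and Cd3e were at 0 in both libraries. Pecam1 (CD31) was above 0 in 3.14% and 20.3% of members, at 8.57 and 28.0 CPM, and after thinning to 1000 UMIs in 1.05% and 0. The summed level of the 8 immune markers was 6.89 and 32.7 CPM, of which Lyz2 made up 1 and 15 UMIs, and that of the 6 endothelial markers 15.3 and 28.0 CPM.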

How the data were processed

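Cells of the knee joint were profiled by droplet single-cell RNA sequencing in 1 library for each genotype. Per the methods and the processing notes of the submitters, the authors trimmed the reads and aligned them in Partek to mm10 with STAR 2.7.3a, counted unique molecular identifiers per gene, chose cells by their depth, removed free RNA with SoupX, and used R 4.0.3. The deposited gene values are log2 of CPM + 1 per cell for 32245 genes, and the deposited total of each cell is an estimated count left after the removal of free RNA. The tables also hold the authors' percent of mitochondrial and ribosomal reads and, as a score, the number of genes found in each cell. The methods name a limit of 5% mitochondrial reads, which 14.2% of control and 36.7% of mutant cells exceeded, and a limit of 24000 counts, which no cell exceeded.

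Estimated UMIs were recovered as CPM times the total of the cell. They were whole within 0.1 for 74.9% of control and 97.3% of mutant values, so no count test was used. UMIs were summed over the cells of a group in a library and scaled to CPM, with a pseudocount of 1 CPM for log2 ratios. With 1 library per genotype no test was made, and genes were called by a fold of 2. The libraries held 23576417 and 7452649 UMIs. Gene positions are from Gencode M21. No doublet caller was run, and members that met the rule of another cell type were left out as an alternative. The libraries shared 2 barcodes, of which 0 belonged to control members and 1 to a mutant member.

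The members and the gene lists were chosen with earlier results of these data known. Named genes were the rule genes, Stat3, Acan, Sox9 and Col2a1, the genes of the lists, the 10 highest and 10 lowest ratios between genotypes, and the 15 highest ratios over all other cells and over other fibroblasts. The sums and ratios were tested on simulated data. Python 3.11.15, numpy 2.4.6, pandas 2.3.3, scipy 1.17.1 and matplotlib 3.10.9 were used.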

Additional observations from a re-analysis of the deposited data

Results flagged for a closer look

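In 3 genes of the STAT3 pathway the log2 ratio between genotypes had opposite signs in the universal-type fibroblasts and in the cells with both Sox9 and Col2a1. Stat3 had a ratio of 0.69 in the fibroblasts and -0.54 in the Sox9 and Col2a1 cells, Osmr 0.36 and -2.12, and Socs3 1.26 and -0.03. The last value stands for 67.0 and 65.4 CPM, nearly equal levels, and Socs3 was above 0 in 24.4% and 29.7% of the Sox9 and Col2a1 cells, so its opposite sign is not borne out by the share of cells. Stat3 was above 0 in 46.1% and 42.7% of the Sox9 and Col2a1 cells, with overlapping intervals. The differences between cell groups were not tested, since each genotype had 1 library.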

How the results depend on the processing

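The excess of members in the mutant library, 2.0 percentage points, was 4.45 with at least 3 rule genes, 4.40 among cells of at most 5% mitochondrial reads, 5.38 as a share of members and other fibroblasts, and 0.202 when cells were thinned to 1000 UMIs before the rule. Of the genes at least 2-fold higher (192) and lower (188) in the mutant library, a limit of 10 CPM gave 520 and 981, no limit 1808 and 3905, and thinning before the rule, which left 15 mutant members, 770 and 513. Alternatives without a limit on levels test more genes. For the Stat3 ratio of 0.69, thinning members after the rule, an alternative chosen after seeing the data, gave 1.37. The chemokine median of 1.92 was 2.53 with at least 5 rule genes and 0.0648 with thinning before the rule. The genes higher than in other fibroblasts numbered 76, and 123 with at least 3 rule genes. The share of members with Acan, 8.90% and 16.5%, was 3.16% and 6.41% after thinning. Leaving out mixed members, also an alternative chosen after seeing the data for Acan, lowered Acan as given above. The cause of these shifts was not tested. The other 81 values that answer a comparison, and 362 of 462 values of single genes and lists, stayed within 1.5-fold of their value or, for shares, within their interval. The 2-fold differences between genotypes that an alternative ended or turned included that of Acan without mixed members (16.8 and 17.9 CPM) and, in members thinned after the rule, those of Fmod (116 and 167 CPM), Igf2 (89.5 and 89.7 CPM) and Pecam1 (10.5 and 0 CPM), while Il11, Cish, Lepr, C1ra and Irf1 fell short of 2-fold there. No paired analysis was possible because each genotype had 1 library, and no library could be left out. Depth limits genes under about 10 CPM, which rest on few UMIs.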

Other observations

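Hyaluronan and growth factor genes of the universal-type fibroblasts were not described above. Tnfaip6, a hyaluronan-binding protein made in inflammation, was at 194 CPM in control and 387 CPM in mutant members, against 123 and 273 CPM in other fibroblasts. The hyaluronan synthases Has1 (80.1 and 126 CPM) and Has2 (48.1 and 37.3 CPM) lay on either side, and the receptor Cd44 was at 321 and 304 CPM. Over the 5 measured genes of this list 3 were higher in the mutant library and the median log2 ratio was 0.65. Of the transforming growth factor and bone morphogenetic protein genes 6 of 11 were higher, with a median of 0.11. Bmp4 was at 38.9 and 85.6 CPM and the BMP antagonist Chrdl1 at 86.0 and 37.2 CPM, while Tgfb2 was at 256 and 254 CPM. Of the 6 measured WNT antagonists 3 were higher, with a median of -0.05. Dkk2, a WNT antagonist, was at 143 and 148 CPM in members and 52.4 and 112 CPM in other fibroblasts.

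Of 16 measured proteases and inhibitors 7 were higher in the mutant library, with a median of -0.20. These values come from 1 library per genotype and were not tested.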
